A study of Mus musculus with 2 samples.

Results

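The miR-26 and miR-101 families were followed in cultured fibro-adipogenic progenitors (FAPs), mesenchymal cells that lie between muscle fibres and can give rise to fat cells and fibroblasts. Every arm named miR-26a, miR-26b, miR-101a, miR-101b or miR-101c was taken from the table of mature miRNAs, which gave 8 arms of 628 listed. The FAPs were Sca1+ cells sorted from skeletal muscle of wild-type C57Bl/6 mice and grown to near confluence in 20% FBS, 10% HS and 5 ng/ml FGF. For 24 h, 1 culture sample was then kept in adipogenic differentiation medium (ADM), of a composition that the sources used here do not state. The other was kept for 24 h in basal medium (BM) with 10% HS. How many animals or dishes stand behind a culture sample is not stated in the labels. Each medium gave 1 small RNA library, so each difference is between these libraries, is not shown to belong to the media, and has no replicate check or p-value.

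Ezh2 is the catalytic subunit of Polycomb repressive complex 2, which methylates histone H3 at lysine 27 and keeps lineage genes silent in progenitor cells. miR-26a represses Ezh2 during the differentiation of mouse myoblasts, and miR-101 was shown to repress EZH2 in human prostate cancer cells. A miRNA pairs with its targets mainly through its seed, bases 2 to 8 from its 5′ end, so miRNAs with the same seed can share targets. Small RNA libraries hold no mRNA, and Ezh2 itself was not measured here.

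The mature sequences of the 4 abundant arms are shown to compare their seeds, which are in capitals (RefSeq, GRCm38.p6).
mmu-miR-26a-5p: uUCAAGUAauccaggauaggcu
mmu-miR-26b-5p: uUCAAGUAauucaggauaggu
mmu-miR-101a-3p: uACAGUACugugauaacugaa
mmu-miR-101b-3p: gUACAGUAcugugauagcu
miR-26a-5p and miR-26b-5p have the same seed and differ by C11U and C21U, with positions counted from the 5′ end of miR-26a-5p; miR-26a-5p is 1 base longer. The RefSeq entry of miR-101b-3p starts 1 base before that of miR-101a-3p, so its seed is UACAGUA where that of miR-101a-3p is ACAGUAC. Over the 18 bases that both entries hold, the 2 miR-101 arms differ by A16G, counted from the 5′ end of miR-101a-3p. The table gives no read sequences, so the first base of the sequenced reads was not examined. The entry of miR-101c (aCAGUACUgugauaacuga) lies wholly within miR-101a-3p, and neither miR-101c nor miR-101b-5p was among the listed miRNAs.

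The opposite arms have other seeds. They are shown with the hairpins they come from, because miR-26a-5p is cut from 2 different hairpins and only the 3p arms tell these apart (both mature arms in capitals).
Mir26a-1: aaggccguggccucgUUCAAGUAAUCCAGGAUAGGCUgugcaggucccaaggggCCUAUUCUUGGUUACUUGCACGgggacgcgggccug
Mir26a-2: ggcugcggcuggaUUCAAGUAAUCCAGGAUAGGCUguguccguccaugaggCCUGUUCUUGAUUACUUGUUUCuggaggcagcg
Mir26b: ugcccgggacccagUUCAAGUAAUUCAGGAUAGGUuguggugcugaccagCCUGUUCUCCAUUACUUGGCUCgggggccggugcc
Mir101a: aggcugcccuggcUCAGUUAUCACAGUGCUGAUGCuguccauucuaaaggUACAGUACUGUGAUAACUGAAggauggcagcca
Mir101b: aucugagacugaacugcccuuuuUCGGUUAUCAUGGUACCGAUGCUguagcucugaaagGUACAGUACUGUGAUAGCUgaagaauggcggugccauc
The miR-26 hairpins lie in the genes of the small C-terminal domain phosphatases, on the strand of each host. Mir26a-1 is at chr9:119031796-119031885 (plus strand, GRCm38) in an intron of Ctdspl. Mir26a-2 is at chr10:126995530-126995613 (plus strand) in an intron of Ctdsp2, and shares 1 base with an annotated Ctdsp2 exon. Mir26b is at chr1:74394310-74394394 (plus strand) in an intron of Ctdsp1. Mir101a, at chr4:101346945-101347027 (minus strand), lies within an exon of the lincRNA E130102H24Rik. Mir101b, at chr19:29135279-29135375 (plus strand), lies in an intron of Rcl1, which encodes a factor of ribosomal RNA processing.

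The mouse Ezh2 transcript holds letters that pair with both seeds. They were searched on the transcript strand of the longest annotated 3′ untranslated region, 402 bases in length (GENCODE M21), as TACTTGA for miR-26, GTACTGT for miR-101a-3p and TACTGTA for miR-101b-3p. The last 2 motifs overlap by 6 letters, and GTACTGTA holds both. The matches in Ezh2 are shown in capitals within their flanks, named by the miRNA and by their distance in bases from the stop codon.
miR-101a, 59 to 65: ttcaggaaccttgaGTACTGTggg
miR-101a, 114 to 120: tctgaatttgcaaaGTACTGTaac
miR-26, 248 to 254: atttgaataaagaaTACTTGAact
The match at 114 to 120 is followed by an A and so also holds the miR-101b-3p motif at 115 to 121. The match at 59 to 65 is followed by a G and holds the miR-101a-3p motif alone. Among the first 402 bases of 15300 mouse 3′ untranslated regions of at least that length, 2.85% held the miR-26 motif, 2.71% the miR-101a-3p motif and 3.33% the miR-101b-3p motif. Both the miR-26 and the miR-101a-3p motif occurred in 14 of the 15300 (0.0915%), Ezh2 among them. Ezh2 was looked up because it is a known target, and a match is a description of letters, not a tested site.

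**Figure D1:**
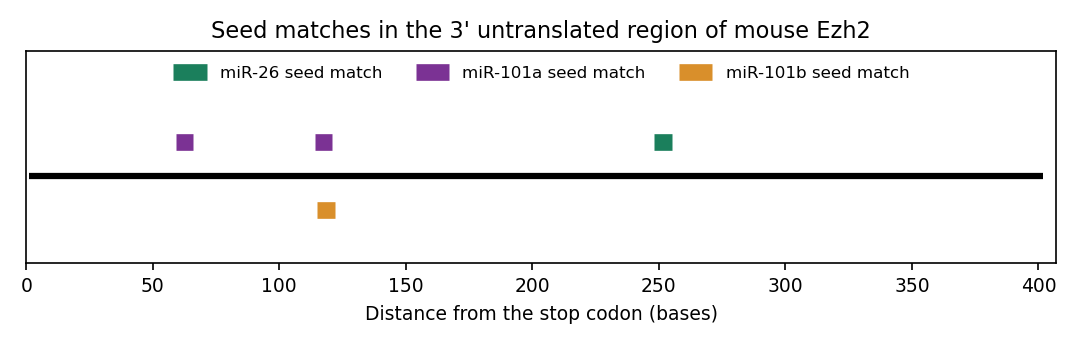
Seed matches along the 402-base 3′ untranslated region of mouse Ezh2, plotted by distance from the stop codon in bases. The miR-101a matches start at 59 and 114, the miR-101b match at 115 overlaps the second of them, and the miR-26 match starts at 248.

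The other core subunits and the protein-coding miRNA host genes were searched in the same way. The lincRNA E130102H24Rik, which holds Mir101a, was not searched. Suz12, a core subunit of the same complex, had 1 miR-26 match (ccagtttaggttttTACTTGAaca, 681 to 687 bases from the stop codon). Eed, the subunit that binds the methylated histone, had 1 miR-101a match (tgtttacattctttGTACTGTctt, 285 to 291). Ctdsp2, the host of Mir26a-2 and a target of miR-26b in zebrafish, had 1 miR-26 match (ccaagtgttgctctTACTTGAttt, 1080 to 1086). Ctdspl had 1 match for miR-101b-3p and none for the other motifs. No match for any of the 3 motifs was found in Ezh1, Ctdsp1 or Rcl1. The whole region was searched, 1933 bases in Suz12, 410 in Eed, 3489 in Ctdsp2 and 3349 in Ctdspl. A longer region has more places for a match, and the shares above cover the first 402 bases only. No share over all genes was computed at these lengths, so these matches are not a result about the genes.

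The authors expressed each miRNA as a percent of the library's reads, and whole reads were recovered from these percents. The reads taken as 100% were 790617 in the ADM library and 755193 in the BM library. Levels are given as those percents or as RPM (the percent times 10000), and 1 read equals 1.26 RPM in the ADM library and 1.32 RPM in the BM library. All 6 mesenchymal marker miRNAs were listed, with a summed level of 84859 RPM in ADM and 73232 RPM in BM. miR-143-3p, with 42301 reads in ADM and 21636 in BM, and miR-145a-5p, with 839 in ADM and 497 in BM, had more reads in ADM. The other 4 had fewer: miR-199a-5p had 3954 in ADM and 7293 in BM, miR-199b-5p 173 in ADM and 342 in BM, miR-214-3p 1381 in ADM and 1615 in BM, and the row that miR-199a-3p shares with miR-199b-3p 18443 in ADM and 23921 in BM. Markers of muscle fibres and myoblasts (4 of 4 listed) summed to 306 RPM in ADM and 3050 RPM in BM, nearly all of it miR-133a-3p with 231 reads in ADM and 2266 in BM. Of the other markers in this group, miR-133b-3p had 8 reads in ADM and 25 in BM. miR-1a-3p (2 reads in ADM and 4 in BM) and miR-206-3p (1 in ADM and 8 in BM) were near 0. Endothelial markers (both arms of miR-126) summed to 257 RPM in ADM and 117 RPM in BM. Blood markers (2 of 5 listed) had 4 reads in ADM and 1 in BM, epithelial markers (3 of 5 listed) 16 in ADM and 19 in BM, and the neural miR-9-5p 18 in ADM and 27 in BM. The part of these other markers in the results below was not tested. In bulk RNA, fewer cells of a type and less RNA per cell cannot be told apart.

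miR-26a-5p was among the most abundant miRNAs of these cells and took a smaller share of the ADM reads than of the BM reads. It had 32365 reads in ADM and 50298 in BM, which is 4.09% of ADM reads (95% Clopper-Pearson interval 4.05 to 4.14%) and 6.66% of BM reads (6.60 to 6.72%). It ranked 6 of 628 in ADM and 3 in BM. The ratio of ADM to BM was 0.615 (95% counting interval 0.606 to 0.623), a 1.63-fold lower share in ADM. The reads carry no molecular identifiers and may be copies of one molecule, so all intervals here cover counting error only.

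Its near-identical relative did not go the same way. miR-26b-5p had 3134 reads in ADM and 2682 in BM, or 0.396% of ADM reads (0.383 to 0.410%) and 0.355% of BM reads (0.342 to 0.369%). Its ratio of 1.12 (1.06 to 1.18) is slightly above 1, and its log2 difference, 0.16 as reported, was 0.048 when libraries were scaled by the trimmed mean of M values. Within each library the comparison does not depend on scaling. It does depend on how reads of such similar arms were assigned, here and for miR-101, which the sources used here do not state. There were 10.3 reads of miR-26a-5p for each read of miR-26b-5p in ADM and 18.8 in BM. The log2 difference between these ratios was -0.86 (-0.94 to -0.78). miR-26b-5p thus made up 8.83% of the pair in ADM (8.54 to 9.13%) and 5.06% in BM (4.88 to 5.25%).

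The miR-101 pair was further apart. miR-101a-3p had 770 reads in ADM and 1480 in BM, or 974 RPM in ADM and 1960 RPM in BM. Its share was 2.01-fold lower in ADM (1.84 to 2.20), so the interval spans the 2-fold threshold. miR-101b-3p had 409 reads in ADM and 169 in BM, or 517 RPM in ADM and 224 RPM in BM, and was 2.31-fold higher in ADM (1.93 to 2.78), an interval that also spans the threshold. The miR-101a-3p level ranked 76 in ADM and 54 in BM, while miR-101b-3p ranked 88 in ADM and 134 in BM. miR-101a-3p exceeded miR-101b-3p 1.88-fold in ADM and 8.76-fold in BM, a log2 difference of -2.22 (-2.51 to -1.93). Of the reads of both 3p arms, miR-101b-3p held 34.7% in ADM (32.0 to 37.5%) and 10.2% in BM (8.83 to 11.8%).

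**Figure D2:**
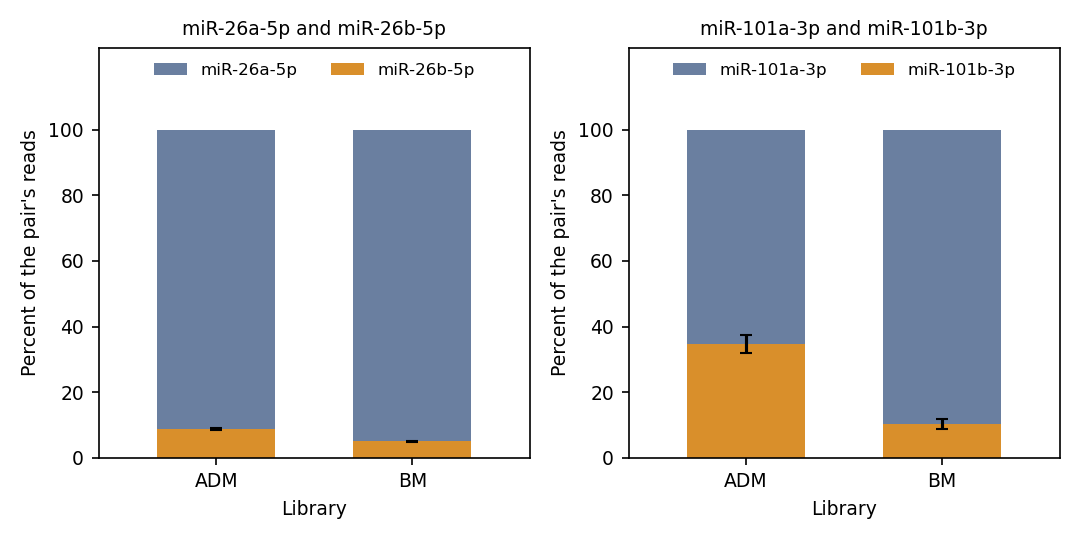
Percent of the reads of miR-26a-5p and miR-26b-5p (left) and of miR-101a-3p and miR-101b-3p (right) that each arm held, in the ADM and BM libraries (1 library each). Bars start at 0 and error bars are 95% Clopper-Pearson intervals of the lower segment. miR-26b-5p takes 8.83% of its pair in ADM and 5.06% in BM, and miR-101b-3p takes 34.7% in ADM and 10.2% in BM.

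These pairs were set beside all pairs of miRNAs that share a number and an arm but differ in letter, with both members at a mean of at least 10 RPM. There were 110 such pairs over 95 miRNAs, and many share a member. Most of them are let-7 or miR-30 pairs, so the median and ranks given here mainly compare with those families. The median absolute difference of their log2 ratios was 0.38. The miR-101a-3p and miR-101b-3p difference of 2.21 was the second largest, after the 2.51 of miR-92a-3p and miR-92b-3p, a pair named after its values were seen. It was the 1 pair of the 110 whose members were at least 2-fold apart in opposite directions by the reported scaling. The miR-26a-5p and miR-26b-5p difference of 0.86 ranked 30 of 110.

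The opposite arms were far rarer. miR-26b-3p had 26 reads in ADM and 41 in BM, with a log2 ratio of -0.71. miR-101a-5p had 9 reads in ADM and 17 in BM, with a log2 ratio of -0.92, and the counting intervals of both ratios include 1. The log2 ratio is log2((ADM + 1)/(BM + 1)) in RPM, and it understates differences at low level. miR-26a-2-3p, with 2 reads in ADM and 5 in BM, and miR-26a-1-3p, with 5 in ADM and 1 in BM, were below 10 RPM. Their ratios were 0.382 (0.0364 to 2.33) and 4.78 (0.534 to 226), so these reads do not show which miR-26a hairpin differed. In the authors' deposited table the ratio of miR-26a-1-3p is also 4.78, a value that rests on 1 BM read.

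Of the ratios between arms of a hairpin, that of miR-26b differed between the libraries by more than counting error. miR-101a-3p exceeded miR-101a-5p 85.6-fold in ADM and 87.1-fold in BM (log2 difference -0.03, -1.20 to 1.15, an interval that includes 0). miR-26b-5p exceeded miR-26b-3p 121-fold in ADM and 65.4-fold in BM (log2 difference 0.88, 0.17 to 1.59). For miR-26a-5p against both of its 3p arms the log2 difference was -0.86 (-2.43 to 0.71), an interval that includes 0.

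The order of levels was the same in both libraries down to the sixth arm: miR-26a-5p, miR-26b-5p, miR-101a-3p, miR-101b-3p, miR-26b-3p and miR-101a-5p. The intervals of the first 5 do not overlap within a library. miR-26b-3p and miR-101a-5p overlap in ADM but not in BM. In each library miR-101a-5p overlaps the next arm below it, and the miR-26a 3p arms overlap each other.

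**Figure D3:**
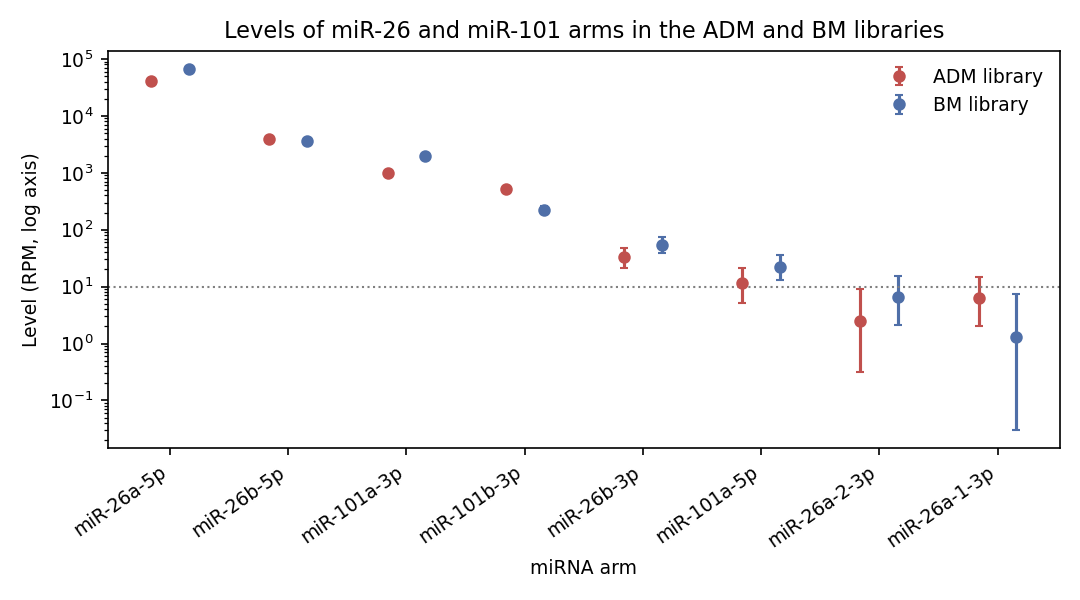
Level of each of the 8 arms in RPM (log axis) in the ADM library (left point of each pair) and the BM library (right point), with 95% Clopper-Pearson intervals. The dotted line marks 10 RPM. Levels span from 40936 RPM of miR-26a-5p in ADM and 66603 RPM in BM to 1 to 5 reads of the miR-26a 3p arms, and miR-26b-5p and miR-101b-3p are the abundant arms whose ADM point lies above the BM point.

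By family, both sums were lower in ADM by about the same factor. All 5 miR-26 arms together took 4.49% of ADM reads (4.45 to 4.54%) and 7.02% of BM reads (6.96 to 7.08%), which is 1.56-fold lower in ADM (1.54 to 1.58). The 3 miR-101 arms together took 0.150% of ADM reads (0.142 to 0.159%) and 0.221% of BM reads (0.210 to 0.231%), which is 1.47-fold lower (1.36 to 1.58). For each miR-101 read there were 29.9 miR-26 reads in ADM and 31.8 in BM. The log2 difference between the families was -0.09 (-0.20 to 0.02), an interval that includes 0. miR-26a-5p made up 32365 of the 35532 miR-26 reads in ADM and 50298 of the 53027 in BM, while the miR-101 sum joins arms that differed in opposite directions.

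Of the 8 arms, 6 had a mean of at least 10 RPM. By the rule of a 2-fold difference, 1 was higher in ADM (miR-101b-3p), 1 lower (miR-101a-3p) and 4 neither. Among all 337 miRNAs above that minimum, 31.2% were at least 2-fold apart, 10.7% higher (36 miRNAs) and 20.5% lower (69). With libraries scaled outside the 10 most abundant miRNAs (miR-26a-5p among them, but kept in the scaling here and below), those counts were 58 higher and 60 lower. A count of 2 of 6 is near this background and is not a result about the families. miR-101a-3p lost its 2-fold call when libraries were scaled by the median of ratios or outside the 10 most abundant miRNAs, which left 1 higher and 0 lower; with it went the opposite calls of the miR-101 pair, but the log2 difference between its members does not depend on scaling. The counting interval excluded 1 for 4 of the 6 arms, where 60.2% of all 337 did so. The median log2 ratio of the 6 arms was -0.70, beside -0.02 for the 337. It lies between miR-26a-5p and the rare miR-26b-3p. The 6 also count both arms of the Mir26b and Mir101a hairpins. The 4 abundant arms had -0.70 (miR-26a-5p), 0.16 (miR-26b-5p), -1.01 (miR-101a-3p) and 1.21 (miR-101b-3p), so the median is not a result about the families.

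**Figure D4:**
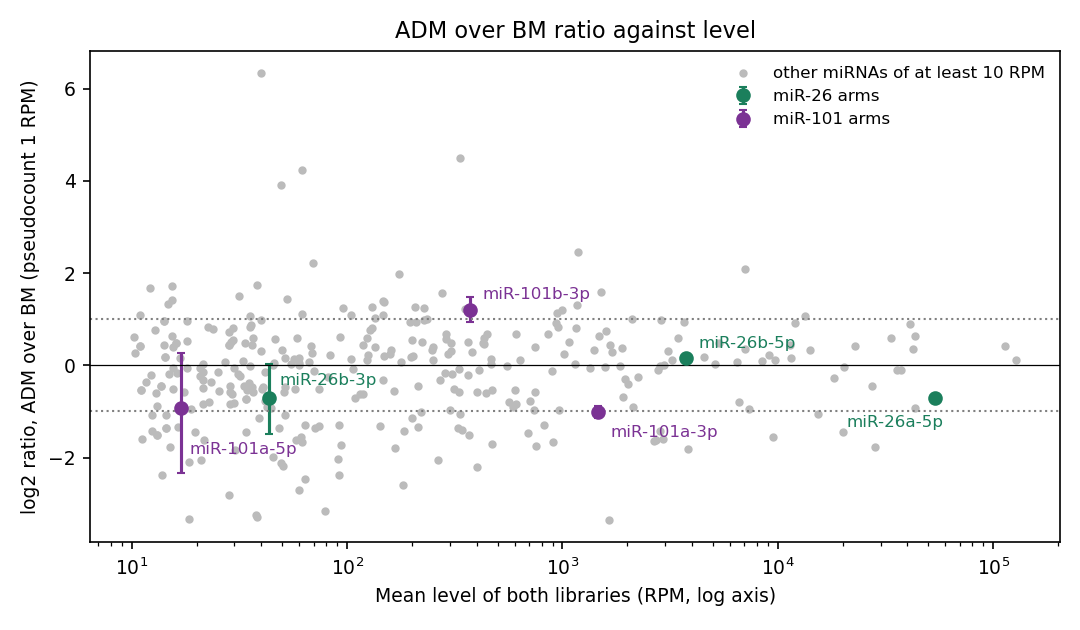
log2 ratio of ADM over BM (pseudocount 1 RPM) against the mean level of both libraries in RPM (log axis) for the 337 miRNAs of at least 10 RPM. Coloured points are the 6 miR-26 and miR-101 arms with 95% counting intervals, dotted lines mark 2-fold. miR-26a-5p at -0.70 is the third most abundant miRNA, and miR-101a-3p at -1.01 and miR-101b-3p at 1.21 lie on opposite sides of 0.

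The miRNAs next to these arms in level or in ratio were taken by a set rule. miR-26a-5p followed miR-22-3p and miR-21a-5p in mean level and came before miR-99b-5p and miR-148a-3p. Of these neighbours miR-99b-5p was lower in ADM (log2 ratio -0.92), and miR-22-3p (0.11), miR-21a-5p (0.42) and miR-148a-3p (0.63) had ratios above 0. Among 71 other miRNAs of at least 1000 RPM, the ratios nearest to the -0.70 of miR-26a-5p were those of miR-99a-5p (-0.69), miR-541-5p (-0.81), miR-125b-1-3p (-0.89) and miR-99b-5p. Nearest to the -1.01 of miR-101a-3p were miR-125a-5p (-1.07), miR-199a-5p (-0.95), miR-99b-5p and miR-125b-1-3p again. Likeness here is the absolute difference of log2 ratios over 2 libraries. In level, miR-101a-3p lay between miR-192-5p (1.59) and miR-23a-3p (0.64) on the higher side and miR-301a-3p (0.33) and miR-532-5p (-0.06) on the lower side.

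Most other miRNAs reported to target Ezh2 in mammalian cells had log2 ratios above 0, 11 of 13, where 48.7% of all 337 did so. Of the 13, 9 were let-7 and miR-98, which are related to each other, and 8 of these 9 were above 0. Of the other 4, 3 were above 0. With the trimmed mean of M values 10 of the 13 were above 0 (43.6% of all 337), with the median of ratios 12 (51.0%) and outside the 10 most abundant miRNAs 12 (57.6%); let-7e-5p or let-7i-5p changed sides. Of 17 on this list, 14 were in the table and 13 had at least 10 RPM, of which 2 were at least 2-fold higher, 0 lower and 11 neither. The background above was 10.7% higher and 20.5% lower. Their median log2 ratio was 0.43. miR-138-5p had 509 reads in ADM and 21 in BM and was 23.2-fold higher (14.98 to 37.7). The other called member, miR-98-5p, a relative of let-7, had 1094 reads in ADM and 456 in BM and was 2.29-fold higher (2.05 to 2.56).

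let-7 was the most abundant group on the list. let-7 and miR-98 together took 14.2% of ADM reads and 10.9% of BM reads. Among its members the log2 ratio was 0.36 for let-7f-5p, 0.60 for let-7c-5p, -0.04 for let-7i-5p, 0.43 for let-7a-5p and 0.49 for let-7b-5p. It was 0.17 for let-7d-5p, 0.11 for let-7e-5p and 0.94 for let-7g-5p. miR-25-3p had 0.59 and miR-30d-5p 0.13, while miR-214-3p, which represses Ezh2 in mouse muscle cells, had -0.29 with 1381 reads in ADM and 1615 in BM. miR-137-3p had 0 reads in ADM and 1 in BM, and miR-124-3p, miR-144-3p and miR-217-5p were not listed under these names. The listed members of the list took 15.9% of ADM reads (15.8 to 15.9%) and 12.3% of BM reads (12.3 to 12.4%), against 4.64% in ADM and 7.24% in BM for the miR-26 and miR-101 arms. Summed over both, the share was 20.5% of ADM reads (20.4 to 20.6%) and 19.6% of BM reads (19.5 to 19.7%).

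**Figure D5:**
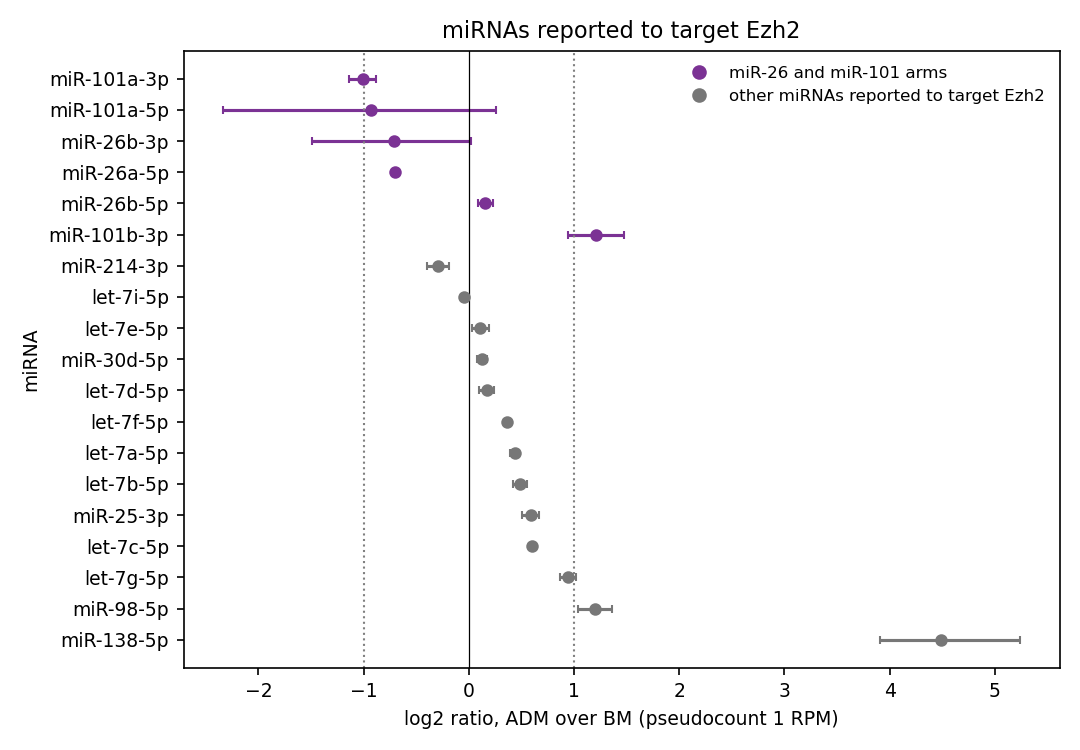
log2 ratio of ADM over BM (pseudocount 1 RPM) with 95% counting intervals for the 6 miR-26 and miR-101 arms (upper rows) and the 13 other miRNAs reported to target Ezh2 of at least 10 RPM. Dotted lines mark 2-fold. The arms run from -1.01 (miR-101a-3p) to 1.21 (miR-101b-3p), and of the others miR-214-3p and let-7i-5p lie below 0 (let-7i-5p above 0 when scaled by the median of ratios or outside the 10 most abundant miRNAs, let-7e-5p below 0 with the trimmed mean of M values). Scaling outside the 10 most abundant miRNAs kept miR-26a-5p, itself among them, in the scaling.

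The seeds themselves were rare among the other listed miRNAs that matched RefSeq by name (516 of 628 rows matched), and the remaining rows were not searched. In RefSeq, miR-6371 shares bases 2 to 7 with miR-26a-5p and miR-144-3p shares them with miR-101a-3p, and neither was listed under that name. The shifted seed of miR-101b-3p shares bases 2 to 7 with miR-582-5p, named after its values were seen, which had 15 reads in ADM and 4 in BM. miR-101b-3p had 409 reads in ADM and 169 in BM, so both of these holders of the 6 letters had more reads in ADM. Among all 337 miRNAs of at least 10 RPM, 48.7% had a log2 ratio above 0. Because miR-582-5p was named with its values known and has few reads, the common direction is not a result about the seed.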

How the data were processed

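Per the labels' protocols, small RNA was extracted with a miRVana kit, made into TruSeq libraries and cut from a gel at 147 bp. Per the file headers, miRanalyzer was used. The sources used here do not state its settings or how it treats multimapping reads. The submitters' processing notes name mm10. The authors deposited each miRNA as a percent of reads, and in a second table with each 0 replaced by 0.5 read, with the ratio of ADM to BM and its log2 (headed ln2; the deposited values equal the log2). All 628 percents in each library were whole multiples of the smallest, within 0.001 read, and were turned into reads on that basis. The rest, 807 reads in ADM and 679 in BM, fell outside the listed miRNAs.

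Ratios of shares got exact conditional (Clopper-Pearson) 95% intervals, and ratios within a library normal 95% intervals of their log2 difference. The interval and call code was tested on simulated data. A miRNA was called at a mean of at least 10 RPM and a 2-fold difference on the log2((ADM + 1)/(BM + 1)) scale. The arms, lists, markers and rules were chosen with earlier results of these data known. Named miRNAs are all arms of both families, the Ezh2 list, sharers of bases 2 to 7 with miR-26a-5p or miR-101a-3p, and the neighbours in ratio and level of the most abundant arm of each family. Outside this rule, the cell type markers come from their own list, and miR-92a-3p, miR-92b-3p and miR-582-5p were chosen after their values were seen. All 8 arms matched RefSeq sequences by name, as did 516 of 628 rows. Host genes and 3′ untranslated regions (longest per gene, 21021 genes) came from GENCODE M21, of the assembly that mm10 names. Ligation and amplification differ between sequences, so levels of different miRNAs are compared as read shares only. Python 3.11.15, pandas 2.3.3 and scipy 1.17.1 were used.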

Additional observations from a re-analysis of the deposited data

How the results depend on the processing

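Scaling by the trimmed mean of M values shifted every log2 ratio by -0.11, the median of ratios by 0.06 and scaling outside the 10 most abundant miRNAs by 0.24. The last of these kept miR-26a-5p, itself among those 10, in the scaling. In that order of scalings, miR-26a-5p had -0.81, -0.64 and -0.47, and the miR-26 sum -0.75, -0.58 and -0.41. With the trimmed mean and outside the 10 most abundant, miR-26b-5p had 0.048 and 0.40 and the miR-101 sum -0.66 and -0.32. miR-101a-3p had -0.77 outside the 10 most abundant. Of 6 arms, 1 was at least 2-fold apart with the median of ratios and 1 outside the 10 most abundant. With the trimmed mean 1 was higher and 2 were lower, as miR-101a-5p then had -1.03 on 9 reads in ADM and 17 in BM. Without a minimum 4 of 8 arms were, and at 1.5-fold 5 of 6. On the Ezh2 list the count was 5 at 1.5-fold and 1 without let-7 and miR-98. Over all miRNAs, alternatives added after seeing the data gave 289 without a minimum, 50 with a minimum of 100 RPM and 179 at 1.5-fold, against 105 as reported. Of the 84 alternatives, 64 stayed within the counting interval, or within a factor of 1.5 for counts, the trimmed mean count of arms among them. Of all 84, 0 changed sign of a called value. Scaling could not change such a sign, because called values are at least 2-fold apart and the largest shift was 0.24. The intervals of the miR-26a 3p arms were too wide for these alternatives to leave. No paired analysis was possible because each medium has 1 library, and no library could be left out. Depth limits the miR-26a 3p arms, with 1 to 5 reads a library.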
